A study of Mus musculus with 5 samples.

Results

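The MS4A genes encode membrane proteins related to CD20, and 8 of them were followed in mouse macrophages grown from bone marrow as they formed osteoclasts, the large bone-resorbing cells with several nuclei. The 8 genes (Ms4a3, Ms4a4a, Ms4a4b, Ms4a4c, Ms4a6b, Ms4a6c, Ms4a6d and Ms4a7) were taken by symbol from 22180 genes of an Affymetrix array, and each had 1 row in the value table. The set was selected on values of these same arrays: it was proposed with their results known, and Ms4a4a was chosen by its low value at day 2, so the values are a description. Wild-type marrow cells of mice aged 10 weeks were grown on plastic with 20 ng/ml M-CSF, the factor that sustains macrophages, and with RANKL at 30 ng/ml, the ligand that makes macrophages become osteoclasts. RNA came from macrophages before differentiation (day 0), from differentiating cells (days 1, 2 and 3) and from cells labelled mature osteoclasts (day 5), with 1 array per day and 5 arrays in all. No replicate and no culture without RANKL was analysed here, so no p-value is given, and osteoclast formation and mere time on the plate cannot be told apart.

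MS4A proteins cross the membrane several times, and several of them act as partners of other surface receptors. CD20 itself is a B cell protein and MS4A2 is the beta chain of the IgE receptor of mast cells. Others belong to the myeloid lineage: MS4A7 and MS4A4A are surface markers of macrophages, and MS4A3 marks granulocyte-monocyte progenitors in the marrow. In mouse and human the genes lie side by side in a cluster.

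All values are log2 values made with RMA, so a difference of 1 is 2-fold, and the number of arrays limits the precision. A gene is called measured when its mean over the arrays reached 4.89, the median of all rows. Of the 8 genes, 7 were measured and Ms4a4b was not. As a yardstick of measurement noise, rows of genes with more than 1 row were compared over 500 genes. The SD for 1 row was 0.32 for day 1 against day 0, 0.27 for day 2 against day 1, 0.29 for day 3 against day 2, 0.22 for day 5 against day 3 and 0.42 for day 5 against day 0. This yardstick does not cover the spread between cultures. Array medians lay between 4.88 and 4.92. The osteoclast markers were checked against the label of the culture: all 10 osteoclast markers, among them Ctsk and Acp5, were at least 2-fold higher at day 5 than at day 0. Of 8 macrophage markers 3 were at least 2-fold lower in that comparison (Cx3cr1, Fcgr1 and Mrc1) and 0 higher, and Csf1r and Cd68 were not below 11.71 and 12.61 on any array.

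These promoters are shown because they are the 2 pairs that resemble each other most among the genes with a promoter. RefSeq (GRCm38.p6) gave a promoter for 7 of the 8, all but Ms4a6d, from 250 bases before to 50 after the start, and all lie on chromosome 19. Capitals mark the longest run of letters that the 2 promoters of a pair share. The first pair is Ms4a6b (chr19:11518309-11518608, plus strand) and Ms4a6c (chr19:11469118-11469417, plus strand), with a shared run of 48 bases.
Ms4a6b: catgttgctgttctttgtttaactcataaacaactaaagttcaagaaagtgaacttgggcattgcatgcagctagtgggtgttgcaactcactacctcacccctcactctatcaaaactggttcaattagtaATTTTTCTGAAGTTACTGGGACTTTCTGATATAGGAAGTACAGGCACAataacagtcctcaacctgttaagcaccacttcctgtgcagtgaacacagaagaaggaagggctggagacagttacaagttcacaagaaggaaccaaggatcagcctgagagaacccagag
Ms4a6c: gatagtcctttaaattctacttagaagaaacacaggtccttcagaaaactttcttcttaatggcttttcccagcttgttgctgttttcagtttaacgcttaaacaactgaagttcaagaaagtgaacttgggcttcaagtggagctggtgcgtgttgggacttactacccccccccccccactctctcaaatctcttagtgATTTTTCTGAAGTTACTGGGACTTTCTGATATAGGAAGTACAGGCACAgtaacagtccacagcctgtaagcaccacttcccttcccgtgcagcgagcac
The second pair is Ms4a4b (chr19:11443308-11443607, plus strand) and Ms4a4c (chr19:11407411-11407710, plus strand), with a shared run of 20 bases.
Ms4a4b: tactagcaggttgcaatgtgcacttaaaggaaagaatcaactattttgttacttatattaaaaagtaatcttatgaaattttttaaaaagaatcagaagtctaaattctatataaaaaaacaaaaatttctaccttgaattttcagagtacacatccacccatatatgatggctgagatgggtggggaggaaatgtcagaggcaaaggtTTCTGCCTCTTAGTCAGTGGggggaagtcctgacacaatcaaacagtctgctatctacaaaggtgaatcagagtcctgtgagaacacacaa
Ms4a4c: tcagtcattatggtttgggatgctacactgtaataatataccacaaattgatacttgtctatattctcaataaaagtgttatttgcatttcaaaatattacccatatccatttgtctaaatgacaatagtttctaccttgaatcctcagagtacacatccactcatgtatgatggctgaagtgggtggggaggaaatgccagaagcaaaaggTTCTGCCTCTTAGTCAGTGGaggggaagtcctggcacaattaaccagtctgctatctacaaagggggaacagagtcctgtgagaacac
In a global alignment 88.3% of aligned bases were identical in the first pair and 84.9% in the second. The other 19 pairs of promoters ranged from 66.3% to 77.3%, with longest shared runs of 7 to 12 bases.

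Ms4a4a, which encodes a macrophage surface protein that associates with the beta-glucan receptor dectin-1, had the widest range of the 8 genes. Its log2 value was 8.14 at day 0, 5.52 at day 1, 5.12 at day 2, 7.28 at day 3 and 8.05 at day 5. The arrays of days 0 and 5 were high and those of days 1 and 2 close to the level filter. Day 2 was 8.09-fold below day 0 (log2 difference -3.02), and day 5 was 7.64-fold above day 2 (2.93). Most of the first difference was already there at day 1 (-2.61), and the step from day 1 to day 2 was -0.40. Against the lower of days 1 and 3, the planned measure of the trough, day 2 of Ms4a4a was at -0.40. In that measure 0 of the 8 genes were 2-fold down, beside 0.141% of measured genes. Day 2 minus the lower of days 0 and 5, which was not a planned measure, was -2.93. Only 2 measured genes, itself included, were that low, but Ms4a4a was chosen for a low day 2, so its place is no independent result. In this unplanned measure, 4 of the 8 genes (Ms4a4a, Ms4a6b, Ms4a6c and Ms4a7) were at least 2-fold down, beside 1.07% of measured genes. The same choice bears on that count. RMA shrinks differences between low values, which can make the folds of Ms4a4a too small.

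**Figure D1:**
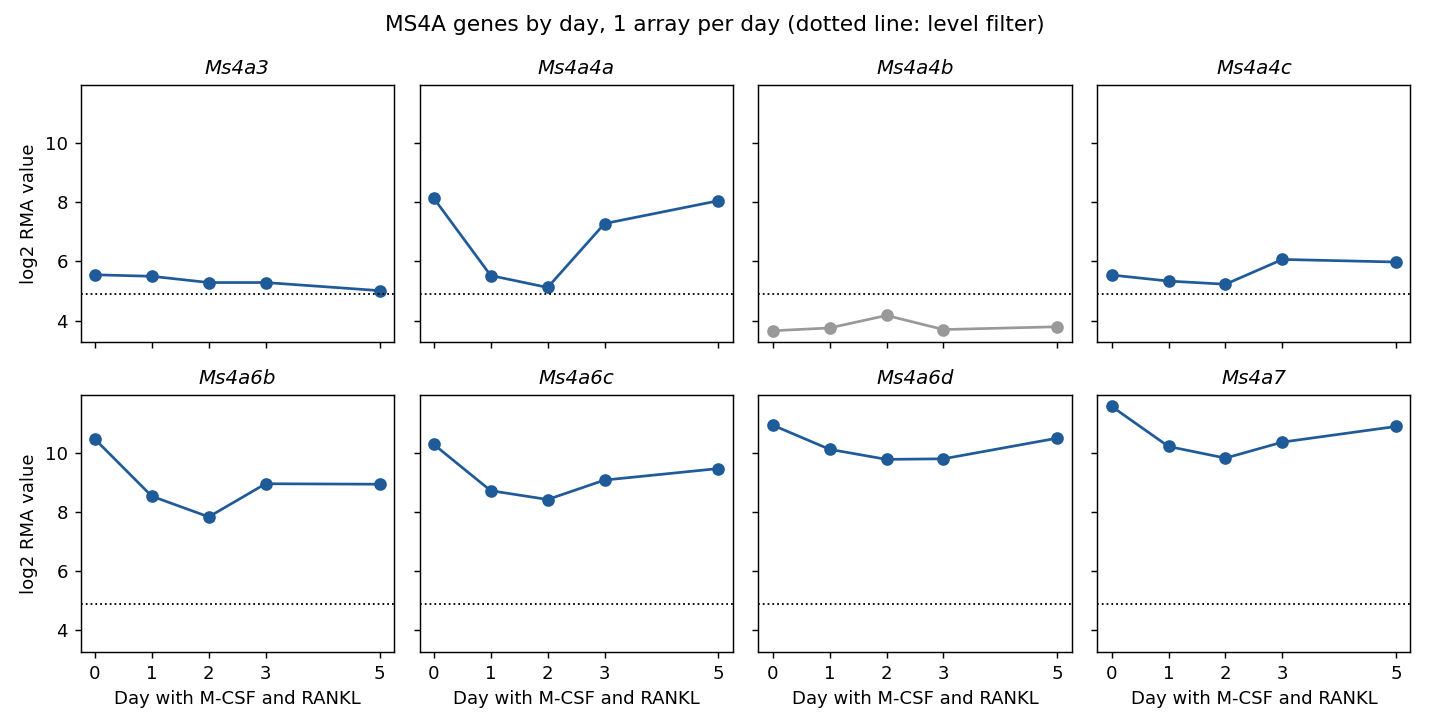
Log2 RMA value (y axis) of each of the 8 MS4A genes on the arrays of days 0, 1, 2, 3 and 5 (x axis), with 1 point per array and the level filter of 4.89 as a dotted line. Ms4a4a spans from 5.12 to 8.14, Ms4a6b, Ms4a6c, Ms4a6d and Ms4a7 dip on high levels, and Ms4a4b (grey) stays under the line.

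Ms4a7, a macrophage surface marker, and the copies of the Ms4a6 group were also lowest at day 2, with smaller differences. Ms4a7 read 11.58 at day 0, 10.22 at day 1, 9.83 at day 2, 10.37 at day 3 and 10.90 at day 5. Ms4a6c read 10.29, 8.73, 8.43, 9.08 and 9.47 on the same days. For both genes day 0 was the highest array and day 2 the lowest, with the later arrays between them. Day 2 was 3.36-fold below day 0 for Ms4a7 (-1.75) and 3.64-fold for Ms4a6c (-1.86).

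Ms4a6b, another copy of that group, was the one furthest below its first level at day 5. Its values were 10.47 at day 0, 8.54 at day 1, 7.84 at day 2, 8.96 at day 3 and 8.94 at day 5. The 2 last arrays were nearly equal, at a level between day 1 and day 0. Day 5 was 2.88-fold below day 0 (-1.53), the one gene of the 8 with a difference of 2-fold or more over the whole course. Of its difference between days 0 and 2, 42.0% was regained by day 5 on the log2 scale, against 97.2% for Ms4a4a, 56.2% for Ms4a6c, 61.3% for Ms4a7 and 62.0% for Ms4a6d. In log2 units day 5 was 1.10 above day 2 for Ms4a6b, close to 1.05 for Ms4a6c and 1.07 for Ms4a7. Beside those genes, the lower share of Ms4a6b went with a larger difference between days 0 and 2 (-2.63). This did not hold for Ms4a4a, which had a still larger difference (-3.02) and the highest share.

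Ms4a6d, whose protein forms a complex with the complement receptor VSIG4 in macrophages, had the smallest difference of these genes and the latest return. It read 10.94 at day 0, 10.12 at day 1, 9.78 at day 2, 9.80 at day 3 and 10.50 at day 5. Days 2 and 3 differed by only 0.02, so its low stretch covered both arrays, while Ms4a4a and Ms4a6b were already 2.16 and 1.12 higher at day 3 than at day 2. Between days 3 and 5 Ms4a6d was higher by 0.70 and Ms4a6b was not (-0.02).

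The other 3 genes were less than 2-fold apart between any 2 arrays. Ms4a4c read 5.54, 5.34, 5.23, 6.07 and 5.98 on days 0, 1, 2, 3 and 5, so its last arrays were above its first (0.44 for day 5 against day 0). Its step from day 2 to day 3 was 0.84, the third highest of the 8 genes in that step, and 405 of the 12049 measured genes, itself included, were at least that much higher. Ms4a4b, a T cell adaptor associated with the costimulatory receptor GITR, lay between 3.66 and 4.18 and was below the filter on every array. The promoters of these genes, printed above, resemble each other, but only Ms4a4c passed the filter. Ms4a3 was the one measured gene with its lowest array at day 5: it read 5.55, 5.50, 5.29, 5.29 and 5.01.

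**Figure D2:**
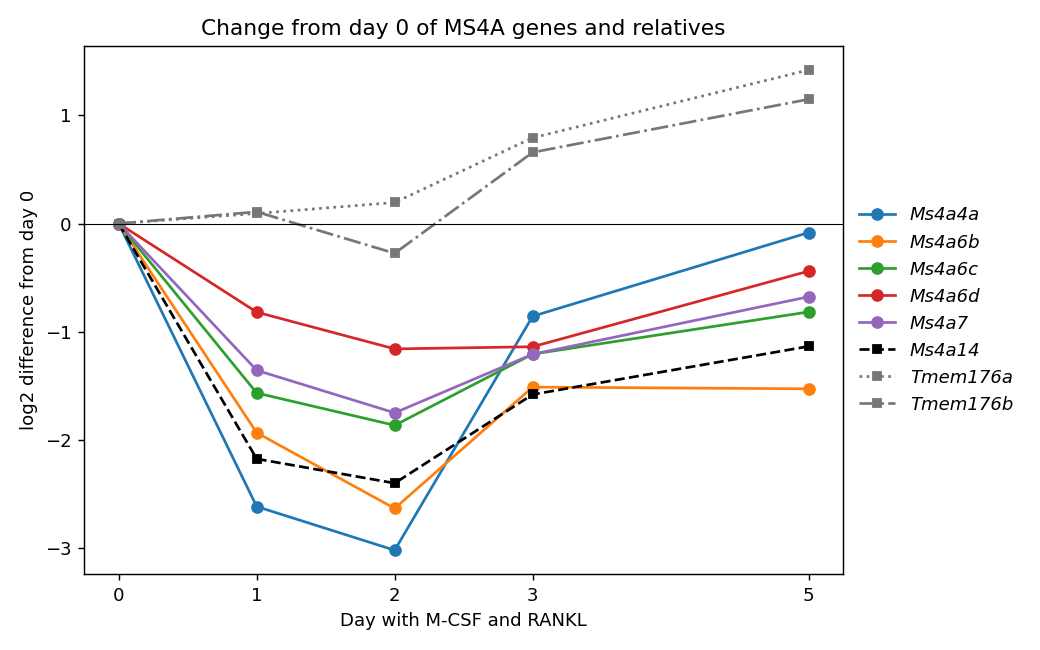
Log2 difference from day 0 (y axis) by day (x axis) for 5 MS4A genes of the set (circles) and for Ms4a14, Tmem176a and Tmem176b (squares), with 1 array per day. Ms4a4a returns to -0.08 at day 5, Ms4a6b stays at -1.53, and both Tmem176 genes end above 0.

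Counted over the course, the first day held most of the lower values. At day 1 against day 0, 4 of the 8 genes were at least 2-fold lower (Ms4a4a, Ms4a6b, Ms4a6c and Ms4a7) and 0 higher, where 4.17% of the 12049 measured genes were lower and 2.91% higher. The median over the 8 genes was -1.09, against 0.00 over measured genes. At day 2 against day 0, a comparison added after the values were seen, 5 were lower and 0 higher (background 5.25% and 5.18%), Ms4a6d (-1.16) being the fifth. The step from day 1 to day 2 had 0 of 8 past 2-fold either way, with a background of 0.556% lower and 2.46% higher. In that step 7 of the 8 values were below 0, from -0.11 for Ms4a4c to -0.70 for Ms4a6b, and Ms4a4b was at 0.42. Day 2 was the lowest array for 6 of the 8 genes, as it was for 15.2% of measured genes. The set was proposed with these values known, and nothing is read from the counts beyond this.

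The later arrays were higher again, in different steps for different genes. At day 3 against day 2, 2 of the 8 genes were at least 2-fold higher (Ms4a4a and Ms4a6b) and 0 lower, beside 2.08% and 3.91% of measured genes. Between days 3 and 5, 0 of 8 passed 2-fold, beside 0.158% higher and 0.116% lower over measured genes. The largest differences of that step were 0.77 for Ms4a4a, 0.70 for Ms4a6d and 0.53 for Ms4a7. From day 2 to day 5, also added later, 4 were higher and 0 lower (background 2.78% and 3.75%). Of these, Ms4a6b (1.10), Ms4a7 (1.07) and Ms4a6c (1.05) were only just past 2-fold, where the SD for 1 row was 0.32. Against day 1 in place of day 0, day 5 was at least 2-fold higher for Ms4a4a only (2.53, background 6.3% higher and 6.73% lower), and the other measured genes lay between -0.49 for Ms4a3 and 0.75 for Ms4a6c. Over the whole course, day 5 against day 0, 1 of the 8 was lower and 0 higher, beside 6.56% and 6.78% of measured genes.

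**Figure D3:**
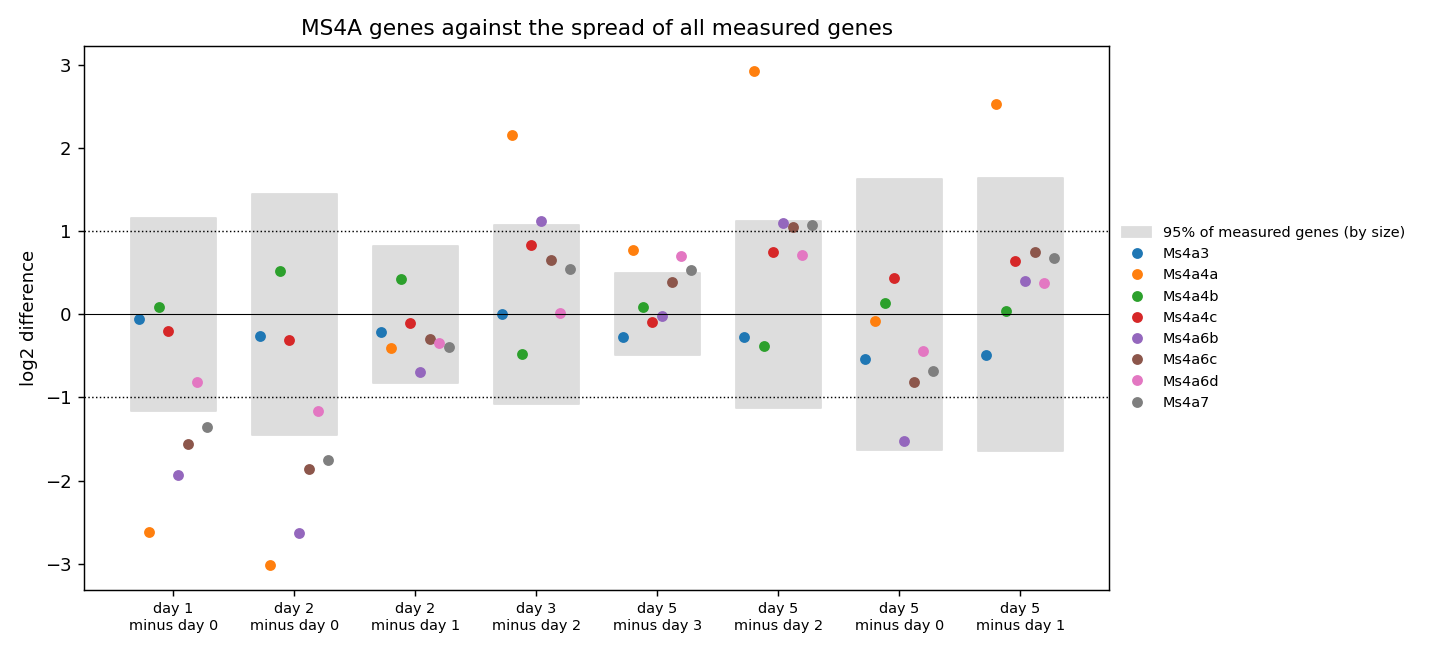
Log2 difference (y axis) of each of the 8 MS4A genes (coloured points) in 8 comparisons of days (x axis), with the grey band holding the 95% of measured genes with the smallest differences and dotted lines at 2-fold. Ms4a4a lies outside the band at day 1 against day 0 (-2.61) and at day 3 against day 2 (2.16), and inside it at day 5 against day 0 (-0.08).

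Among the rest of the family, Ms4a14 was the single further MS4A gene that was measured, of 12 with a row. It read 9.23 at day 0, 7.06 at day 1, 6.83 at day 2, 7.65 at day 3 and 8.10 at day 5. Its low point was at day 2 as well, 5.27-fold below day 0 (-2.40), with 52.7% regained by day 5. The other 11 were below the filter, among them Ms4a1, which encodes CD20 (3.43 on every array), and Ms4a2 (between 3.27 and 3.43). Tmem176a and Tmem176b, relatives of CD20 that form cation channels in inner membranes of dendritic cells, were higher at day 5 than at day 0. Tmem176a read 6.87, 6.96, 7.06, 7.66 and 8.29 and was 2.67-fold higher at day 5 than at day 0. Tmem176b read 8.67, 8.78, 8.39, 9.32 and 9.81 and was 2.22-fold higher. The lowest array of Tmem176b was day 2, but only at -0.275 from day 0, within the SD for 1 row of that comparison (0.35). That of Tmem176a was day 0.

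Along the chromosome the measured MS4A genes stood together at one end of the cluster. In RefSeq order the interval from Ms4a10 to Ms4a3 holds 32 genes, of which 21 are MS4A genes. Those from Ms4a10 to Ms4a5 were all below the filter, apart from Ms4a12, which is not analysed here. From Ms4a14 onwards come Ms4a7, Ms4a4a, Ms4a4c, Ms4a4b, Ms4a6c, Ms4a6b, Ms4a4d, Ms4a6d, Ms4a2 and Ms4a3, and of these Ms4a4b, Ms4a4d and Ms4a2 were below the filter. Ms4a14, Ms4a7 and Ms4a4a, which stand in a row, were -2.40, -1.75 and -3.02 at day 2 against day 0. Of 11 genes that lie between MS4A genes, 7 had no row, 2 were below the filter and 2 were measured. The measured ones are named after their values were seen. The predicted gene Gm8369, between Ms4a6c and Ms4a6b, read 5.88, 5.23, 4.34, 5.23 and 5.23, with its low point at day 2. That low point was below the filter, and days 1, 3 and 5 had the same value, so the row lay close to the filter. The long noncoding RNA AW112010 read 6.04, 4.96, 5.06, 6.62 and 7.38 and was at 1.34 for day 5 against day 0.

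**Figure D4:**
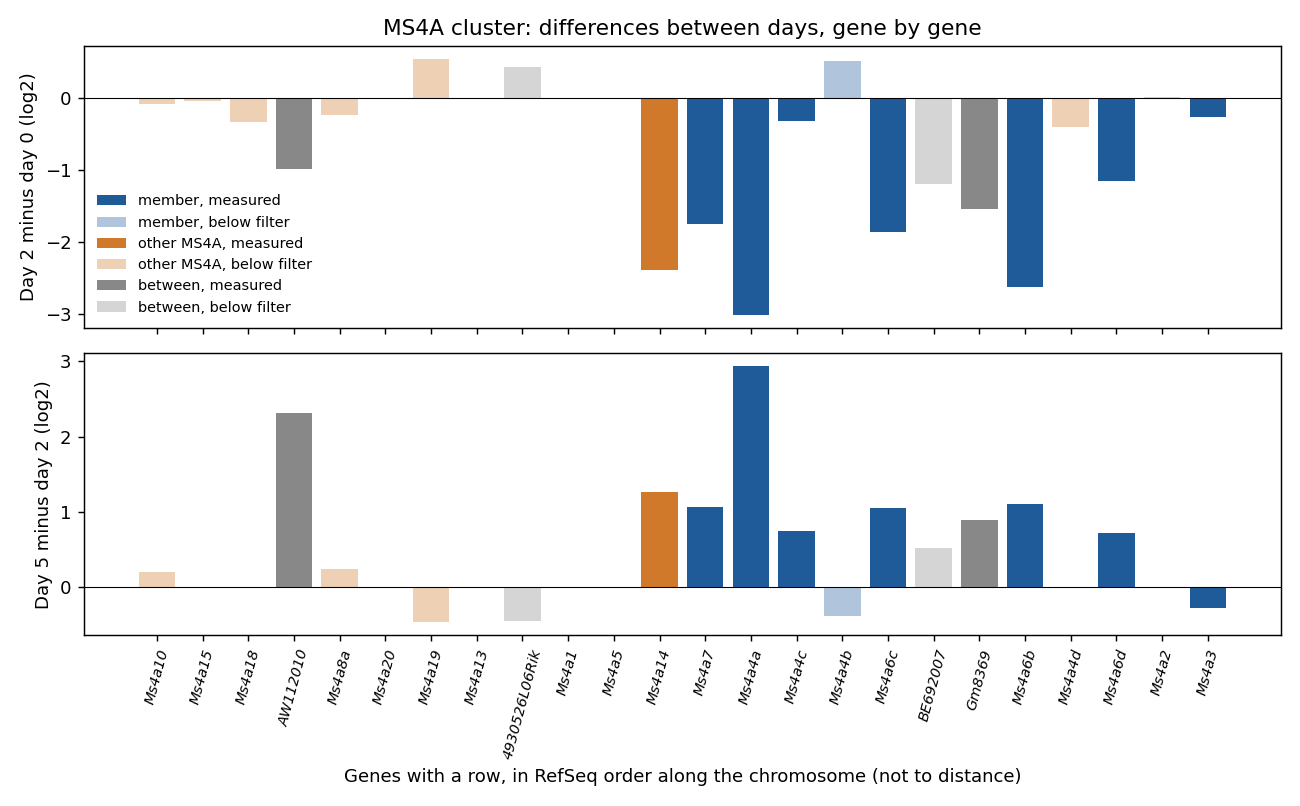
Log2 difference of day 2 from day 0 (top) and of day 5 from day 2 (bottom) for each gene of the MS4A cluster with a row, in RefSeq order along the chromosome (x axis, not to distance). Blue bars are the genes of the set, orange other MS4A genes, grey genes between them, and pale bars are below the level filter; the deepest bar at day 2 is Ms4a4a at -3.02, and Ms4a14 reaches -2.40.

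Probes of closely similar genes can bind each other's transcripts, which may matter for Ms4a6b, Ms4a6c and Ms4a6d. How alike their transcripts are was not measured, and how far this array separates these genes was not tested. At day 5 against day 3 the rows were at -0.02 for Ms4a6b, 0.39 for Ms4a6c and 0.70 for Ms4a6d. In that step rows of the same gene disagreed with an SD of 0.31. Such differences do not tell how far the probes bind across these genes. Ms4a7 and Ms4a6c were closer to each other than Ms4a6c was to Ms4a6b. After each gene was centred on its own mean, the root mean square difference over the 5 arrays was 0.082 for Ms4a7 and Ms4a6c and 0.28 for Ms4a6c and Ms4a6b.

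Likeness to other genes was measured in the same way over 11014 measured genes with predicted and small RNA genes left out, and the 3 nearest were named for each MS4A gene with a range of 1 or more. For Ms4a4a they were Mertk (0.26), the receptor with which macrophages take up dying cells, Ifi204 (0.34), an interferon-inducible DNA sensor, and Saa3 (0.39), an acute phase protein. Mertk read 10.07, 7.24, 7.45, 9.34 and 9.65 on the 5 arrays, so it too was low at days 1 and 2 and back near its first level at day 5. Ms4a6b lay nearest to the chemerin receptor Cmklr1 (0.065), the macrophage transcription factor Irf8 (0.093) and Rgs18 (0.15), a regulator of G protein signalling. Irf8 read 9.17, 7.39, 6.80, 7.74 and 7.84, and like Ms4a6b it stayed below its day 0 value. Ms4a6c had the integrin chain Itgal (0.073), Mettl7a1 (0.075) and Pdlim4 (0.079) at its side. Nearest to Ms4a6d were the lysosomal membrane protein Scarb2 (0.064), Gamt (0.078), an enzyme of creatine synthesis, and Lpcat2 (0.097). Ms4a7 had Ms4a6c as its nearest gene, followed by the transcription factor Cebpd (0.088) and Esyt1 (0.097). With 5 arrays many genes share a course, and these distances are descriptions.

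Receptors and proteins known to pair with MS4A proteins did not share one course. Of 11 partner genes 7 were measured, and at day 5 against day 0, 1 was at least 2-fold higher, 1 lower and 5 neither. Over measured genes 6.78% were higher and 6.56% lower. Clec7a, which encodes dectin-1, the partner of MS4A4A, read 9.05, 8.75, 8.20, 9.93 and 10.33. It shared the low day 2 array with Ms4a4a but was 0.84 lower by then and ended 1.28 above day 0. Trem2, a lipid-sensing receptor linked to MS4A4A in microglia, read 11.89, 11.18, 10.48, 10.41 and 10.92 and was lowest at day 3. Its adaptor Tyrobp lay between 12.05 and 12.67, and Fcer1g, the signalling chain of Fc receptors, between 11.91 and 12.61. Cdkn3, the phosphatase that human MS4A3 binds, was lower at day 5 (-1.60), and its target Cdk2 was at -0.81. Ms4a3 itself was at -0.54, on a row close to the filter and with an SD for 1 row of 0.42. Kit was at 5.36 on 4 arrays and 5.85 at day 3, so its row lay close to the filter. Vsig4, the partner of MS4A6D, Tnfrsf18, which encodes GITR, Fcer1a and Ms4a2 were below the filter, so in these cultures Ms4a6d was high on arrays where Vsig4 was not measured.

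**Figure D5:**
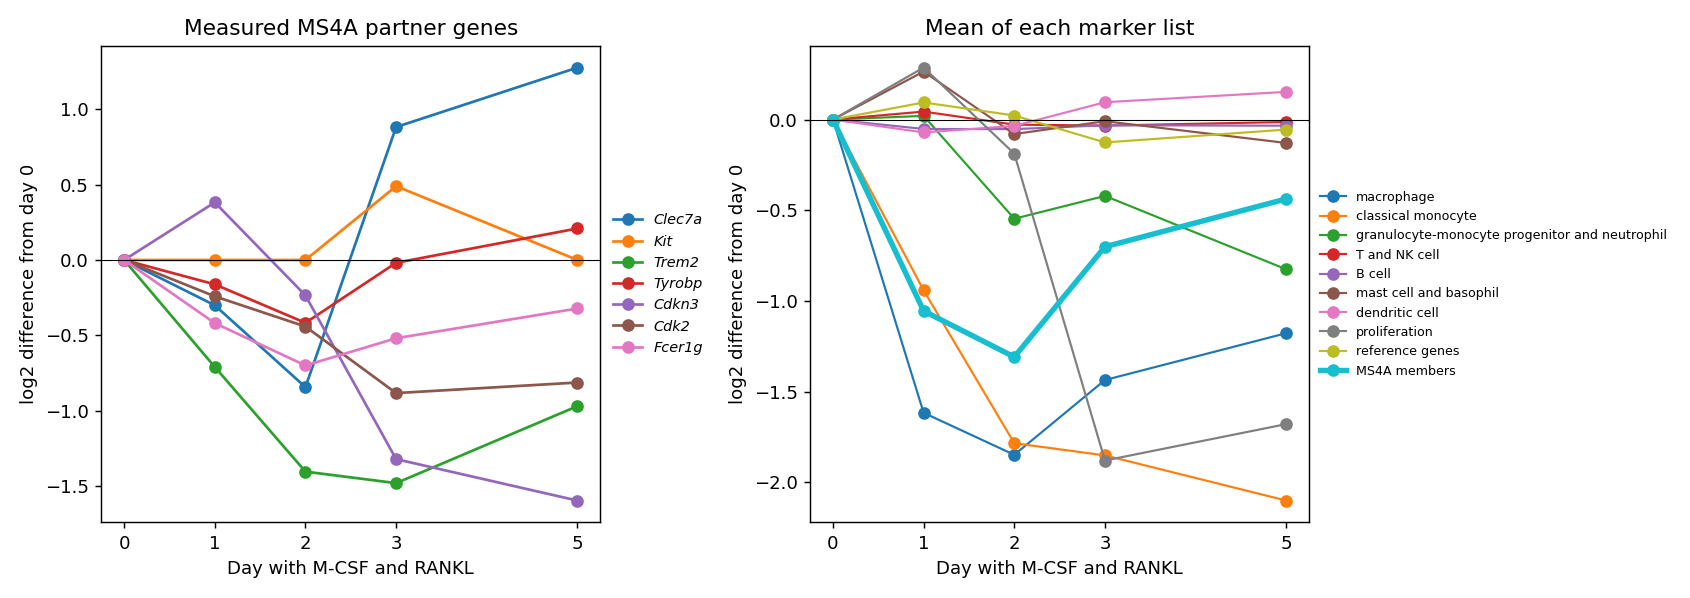
Log2 difference from day 0 (y axes) by day (x axes), with 1 array per day. The left panel shows the 7 measured partner genes. The right panel shows means over the marker lists without the osteoclast list, over the reference genes and over the 8 MS4A genes. Clec7a ends at 1.28 and Cdkn3 at -1.60; the macrophage list and the MS4A genes both have their lowest mean at day 2.

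Markers of the cell types in which MS4A genes are found were set beside them. The mean over the 8 macrophage markers was 11.17 at day 0, 9.55 at day 1, 9.32 at day 2, 9.73 at day 3 and 9.99 at day 5, and over the 8 MS4A genes it was 8.27, 7.22, 6.96, 7.57 and 7.83. At day 2 against day 0, 6 of the 8 macrophage markers were at least 2-fold lower, among them Fcgr1 (-4.18), Mertk (-2.62) and Mrc1 (-2.57), and 0 higher. The 2 others were Csf1r (-0.50) and Cd68 (-0.07). Cx3cr1, at -1.97 there, was still lower at day 5 (-3.46), while Mertk was at -0.42. In bulk RNA, fewer cells of a type and less RNA per cell cannot be told apart, and the part of the macrophage share in the MS4A values was not tested. Of 5 classical monocyte markers with a row, 4 were at least 2-fold lower at day 5 than at day 0 and 1 higher. Those lower included F13a1 (-5.01), Fn1 (-3.93) and Ccr2 (-1.84), and the one higher was Vcan (1.64). The mean over the 5 was 8.03, 7.09, 6.25, 6.18 and 5.93 on the 5 arrays.

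Ms4a3, a gene of granulocyte-monocyte progenitors, was set beside markers of those cells. Of 13 markers of granulocyte-monocyte progenitors and neutrophils, 11 were measured, 5 were at least 2-fold lower at day 5 than at day 0 and 0 higher, and the mean over the list lay between 5.52 (day 5) and 6.36 (day 1). Gfi1 and Retnlg were below the filter. Named for their size were Ngp (-1.38), S100a9 (-1.38) and Elane (-1.27), beside -0.54 for Ms4a3. The Ms4a3 row lay close to the filter, and its difference was not far above the SD for 1 row (0.42). The part of such cells in the Ms4a3 value was not tested. Most lymphoid and mast cell markers were below the filter. Of 10 T and NK cell markers 8 were below the filter, Cd3e, Cd3d and Cd3g included, and the mean of the list lay between 4.65 and 4.73. The exceptions were Cd4 (4.73 to 5.51) and Il7r (8.06 to 9.44), which are not restricted to T cells. Of 6 B cell markers 5 were below the filter (list mean between 4.26 and 4.31), the exception being Cd22. All 8 mast cell and basophil markers had a mean below it, and the mean of that list lay between 3.95 and 4.34. Gata2, the highest of them, was above the filter at day 1 (5.67) and day 3 (4.91). Of 6 dendritic cell markers 4 were measured, with a list mean between 5.27 and 5.49. Proliferation markers were at least 2-fold lower at day 3 than at day 2 for 6 of 7 (Mcm5 stood at -2.13 and Top2a at -2.02 for day 5 against day 0), the step in which Ms4a4a and Ms4a6b were higher, and their part in that was not tested.

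Short motifs were searched in the promoters on both strands, and the matches are descriptions. AGGAAGT, a core bound by ETS factors such as PU.1, was found in promoters of 2 of 7 genes, Ms4a6b and Ms4a6c. It was in 9.35% of 32851 RefSeq promoters of the same length. A gene was counted for a match in any of its promoters, whereas that share is per promoter. In both genes 1 match lay inside the run in capitals printed above, starting at -86 in Ms4a6b and at -17 in Ms4a6c. GAAAGTGAA, chosen after the sequences were seen, was in the same 2 promoters and in 0.581% of all. The letters on either side of it are the same in both. These 2 promoters are 88.3% identical in aligned bases, so for both motifs they do not count as independent matches. The share of all promoters is then no yardstick for them. TGANTCA, a looser form of the AP-1 motif that allows any middle base, was found in Ms4a4b and in an alternative promoter of Ms4a7 (7.81% of all). The Ms4a4b match reads TGAATCA, whereas the AP-1 site has C or G in the middle. TTGCNNAA, a C/EBP core, was found in Ms4a3 (10.8% of all). GAGGAAGT (3.2% of all) and TCACGTGA (0.974%) had 0 matches in promoters of the 7 genes. The letters AGGAAGT lie within GAGGAAGT, so those searches overlap.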

How the data were processed

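The authors deposited log2 values, which the submitters' processing notes trace to RMA, the oligo package and R 3.4.0. Which probe annotation and build they used is not given in the sources used here. RMA forces the arrays onto a common distribution, which hides any change shared by all genes, and it shrinks differences between low values. Of 41345 rows, 23521 named 1 gene in the platform annotation, 1814 several and 16010 are unnamed here. Only rows naming 1 gene were used, with the brightest row for genes that had several, which gave 22180 genes and 12049 at or above the level filter of 4.89. Symbols of all 8 genes matched RefSeq (GRCm38.p6) through Entrez identifiers. Each comparison is a difference of 2 arrays, counted from 2-fold, with no test because each day had 1 array. Genes, lists and naming rule were all chosen with earlier results of these data known. The rule named the 8 genes, their measured relatives and partners, the 3 genes nearest to each and up to 3 markers of a list, apart from markers named to describe a list. Alternatives covered scaling, rows, level filter and size. Counting and likeness were tested on simulated data. A promoter search for a further, longer pattern, the interferon-stimulated response element (other than the GAAAGTGAA of the report), was also run, and its result is not given here. Python 3.11.15, numpy 2.4.6, pandas 2.3.3, Biopython 1.88 and matplotlib 3.10.9 were used.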

Additional observations from a re-analysis of the deposited data

How the results depend on the processing

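Of 437 values recomputed under alternatives, 426 stayed within 1.5 times the main count or within the noise of 1 row, 11 did not, and 0 reversed. All 11 were counts of genes under another size or level filter. Most other values had little room to move. Each row rule gave 89 values that could not change. Each centring gave 89 values, in which the log2 shifts were smaller than the noise of 1 row. Centring on the reference genes lowered the count of genes higher at day 5 against day 2 from 4 to 3, which stayed within 1.5 times. The total is therefore no measure of robustness. With 1.5-fold in place of 2-fold, 1 gene was lower at day 2 against day 1 (0 in the main count), 4 were higher at day 3 against day 2 (2), 2 higher at day 5 against day 3 (0), 3 lower at day 5 against day 0 (1) and 4 higher at day 5 against day 1 (1). With 3-fold, 2 were lower at day 1 against day 0 (4), 1 higher at day 3 against day 2 (2), 0 lower at day 5 against day 0 (1) and 1 higher at day 5 against day 2 (4). A filter at 7.11, the 75th percentile over rows, left out Ms4a4a, Ms4a4c and Ms4a3; then 1 gene was higher at day 3 against day 2 (2) and 0 at day 5 against day 1 (1), and the Ms4a4a day 2 value could not be given there. Centring each array on the reference genes moved every difference by at most 0.16, and row rules changed none because each gene had 1 row. The alternatives for day 2 against day 0 and day 5 against day 2 were chosen after seeing the data. No paired analysis was possible because each day had 1 array.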
